A study of Rattus norvegicus with 36 samples.

Results

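The passenger arms of the let-7 family were followed through 36 small RNA libraries of rat brain. Earlier results of these data were known when the family was chosen. The members are the mature miRNAs named rno-let-7 that end in -3p, taken by name: rno-let-7a-1-3p, rno-let-7a-2-3p, rno-let-7b-3p, rno-let-7c-1-3p, rno-let-7c-2-3p, rno-let-7d-3p, rno-let-7e-3p, rno-let-7f-1-3p, rno-let-7f-2-3p and rno-let-7i-3p. They are 10 of the 723 mature miRNAs listed, and the species prefix is left out from here on. The entries of let-7a-1-3p and let-7c-2-3p hold the same count in every library and were counted once, which leaves 9 distinct members. Of these, 8 passed the filter on low counts, which kept 457 of the 628 miRNAs with a count, and let-7f-2-3p did not.

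Tissue came from 12 male heterogeneous stock rats, an outbred strain. Each rat gave 1 library of the infralimbic cortex (IL), 1 of the prelimbic cortex (PL) and 1 of the nucleus accumbens (NAc). The rats formed 3 groups of 4. Withdrawal rats had self-administered intravenous cocaine with extended access and were killed at acute withdrawal (16 h by the sample labels, slightly longer in the methods of the study). Abstinence rats had the same access followed by 4 weeks of forced abstinence. Naive rats received no cocaine, and the groups were matched for age at the start of self-administration. Abstinence rats were killed weeks later after their last session than withdrawal rats, so age at death cannot be told apart from abstinence. Regions were dissected as bulk tissue from snap-frozen brains, in which fewer cells of a type and less RNA per cell cannot be told apart.

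A let-7 gene is transcribed into a hairpin that is trimmed to a duplex of its 5p and 3p arms. The 5p arm is the usual guide strand: it is loaded into Argonaute, pairs with messenger RNAs through its seed and lowers their output. The 3p arm is the passenger strand, most of which is discarded, so the level of a 3p arm depends on how much hairpin is made and on how much of that strand is retained. let-7 guides are abundant in mature neurons and glia, where they are known for holding back genes of the immature state.

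Mature sequences were found for 9 of the 10 members (RefSeq, build GRCr8), and let-7c-1-3p is named only. They are shown because the 3p arms differ from each other much more than the guides do. Capitals mark the seed, bases 2 to 8 from the 5′ end. The first 3 lines share 1 seed, and each of the other lines has its own:
let-7a-1-3p and let-7c-2-3p: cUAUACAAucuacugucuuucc
let-7b-3p: cUAUACAAccuacugccuuccc
let-7f-1-3p: cUAUACAAucuauugccuucc
let-7f-2-3p: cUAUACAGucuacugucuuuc
let-7d-3p: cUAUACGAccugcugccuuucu
let-7e-3p: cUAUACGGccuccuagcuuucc
let-7a-2-3p: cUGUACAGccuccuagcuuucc
let-7i-3p: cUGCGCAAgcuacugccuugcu
For comparison, 3 guide arms of the family read:
let-7d-5p: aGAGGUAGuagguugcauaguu
let-7b-5p: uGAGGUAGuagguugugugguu
let-7f-5p: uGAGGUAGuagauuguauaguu

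The 9 3p sequences carried 6 different seeds, whereas the 8 guide arms of the family, with miR-98-5p, shared 1. Pairs of 3p arms differed at 0 to 11 positions, compared from the 5′ end (36 pairs, median 5), and pairs of 5p arms at 1 to 6 (28 pairs, median 3). The pair at 0 is let-7a-1-3p and let-7c-2-3p, whose mature sequences are identical, so their reads cannot be assigned to either gene. The content of G and C also varied, from 36.4% in let-7a-1-3p and 38.1% in both let-7f 3p arms to 50% in let-7b-3p and let-7d-3p, 54.55% in let-7a-2-3p and let-7e-3p, and 59.09% in let-7i-3p. In the reference annotation let-7a-1, let-7f-1 and let-7d lie next to each other, as do let-7c-2 and let-7b. let-7c-1 has miR-99a as its neighbour, let-7e has miR-125a, and let-7f-2 has miR-98.

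Total counts per library were 6192155 to 18877136 (median 10739454). In the PL the lowest withdrawal total, 11372613, lay above the highest naive total, 9911807, and group cannot be told apart from depth in that region. In 3 withdrawal libraries, markers of other cell types stood apart. Withdrawal rat 1 had a summed level of 2490 CPM (counts scaled to library size) over 7 choroid plexus and ependyma miRNAs in the IL, against a median of 1462 CPM in the IL of withdrawal rats. The PL and NAc libraries of withdrawal rat 3 held 2698 and 1353 CPM of 8 epithelial miRNAs, whose median was 32.8 CPM in the PL and 37.5 CPM in the NAc. In 3 more libraries a list was high beside the rest of its group: naive rat 1 held 230 CPM of epithelial miRNAs in the PL (group median 27.6 CPM), and the IL libraries of abstinence rat 1 and naive rat 3 held 5249 and 5048 CPM of 4 oligodendrocyte miRNAs (group medians 2117 and 2445 CPM). Results are also given without the first 3 libraries, and without all 6, where that changes a call. The 6 are not the only libraries with a high list. The 4 vessel miRNAs held 8515 CPM in the PL of naive rat 3 (group median 4361 CPM) and 13406 CPM in the NAc of naive rat 4 (7992 CPM). The oligodendrocyte miRNAs held 5233 CPM in the PL of withdrawal rat 4 (3271 CPM). The neuronal miRNAs miR-124-3p, miR-9a-5p and miR-128-3p together held 156594 to 610104 CPM, and 3 detected erythrocyte miRNAs held 0 to 3.23 CPM.

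One member made up nearly all of the passenger-arm reads. The 3p arms held 1.54% to 3.99% of all let-7 counts of a library (median 2.20%), and let-7d-3p alone held 89.9% to 94.7% of the 3p counts (median 92.6%). let-7d-3p had 18648 to 57766 counts per library and a median of 3286 CPM, which placed it 37th among the 457 miRNAs. let-7b-3p followed with 966 to 3162 counts (median 176 CPM), and let-7e-3p with 423 to 1140 (median 64.2 CPM). No library of any other member reached the lowest count of let-7e-3p.

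The other members were rare. let-7i-3p had 4.38 to 13.7 CPM (median 7.45). let-7f-1-3p had 4 to 79 counts per library (median 2.13 CPM), let-7c-1-3p 2 to 39 (1.03 CPM), let-7a-2-3p 1 to 33 (0.899 CPM) and let-7a-1-3p/let-7c-2-3p 2 to 41 (0.749 CPM). let-7f-2-3p had 25 counts over all libraries, at most 3 in one, and none in 21. A count of 0 allows a level of up to 3 counts, here 0.159 to 0.484 CPM (counting error only). miR-98-3p, the passenger arm of the let-7 relative miR-98, was as scarce, with 18 counts in all and 26 libraries at 0. At these depths the values of let-7f-1-3p, let-7c-1-3p, let-7a-2-3p and let-7a-1-3p/let-7c-2-3p rest on few reads. Their SD over the libraries was 0.85 to 0.89 on the log2 CPM scale against 0.25 for let-7e-3p. This SD also holds differences between regions. Within the NAc, let-7f-1-3p had 34 to 79 reads and an SD of 0.43.

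The order of the levels held over rats for all but the lowest members. Each rat's log2 CPM was averaged over its 3 regions, and the 7 neighbouring pairs of the order were compared over 12 rats with an exact permutation test (sign flips, two-sided, adjusted by Benjamini-Hochberg over the 7 pairs). The order was taken from the median CPM of these same libraries. The p-values therefore describe how steady each difference was over rats and give no independent support for the order. let-7d-3p exceeded let-7b-3p by 4.20 ± 0.09 (SD, n = 12) in log2 CPM, let-7b-3p exceeded let-7e-3p by 1.45 ± 0.24, let-7e-3p exceeded let-7i-3p by 3.11 ± 0.28, and let-7i-3p exceeded let-7f-1-3p by 1.91 ± 0.22, each in 12 of 12 rats with an exact permutation p of 0.000488, the smallest that 12 rats can give, and an adjusted p of 0.000854. let-7f-1-3p exceeded let-7c-1-3p by 0.83 ± 0.48 in 11 of 12 rats (exact permutation p = 0.000977, adjusted p = 0.00137). let-7c-1-3p and let-7a-2-3p did not differ beyond their spread (0.33 ± 0.79, exact permutation p = 0.182, adjusted p = 0.212), nor did let-7a-2-3p and let-7a-1-3p/let-7c-2-3p (-0.07 ± 0.95, exact permutation p = 0.813, adjusted p = 0.813). The mature arms printed are 21 or 22 bases long, so these levels in CPM were not divided by length, and they order reads, not molecules.

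**Figure D1:**
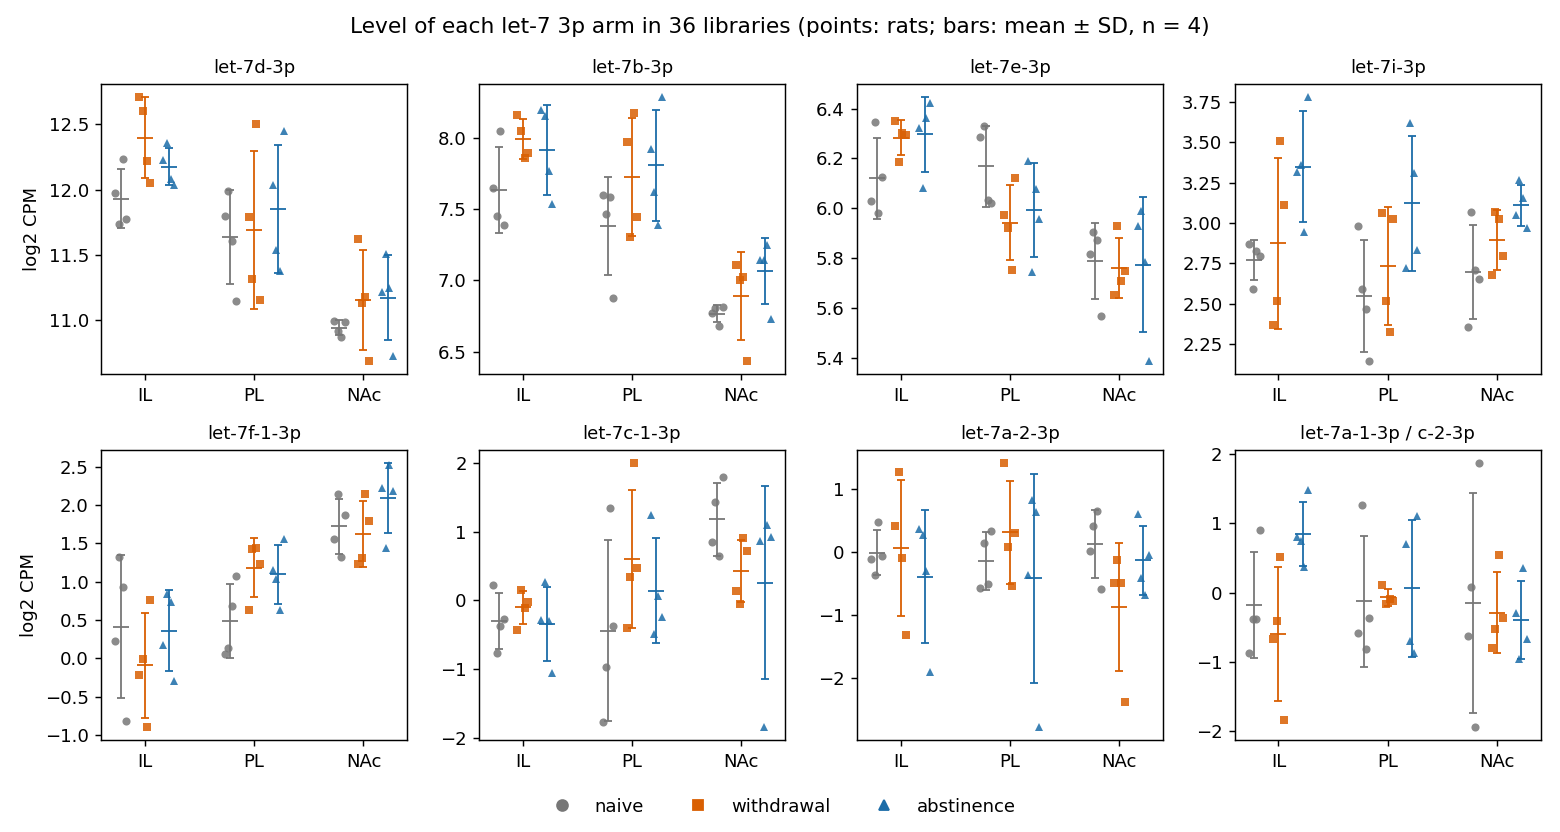
Level of each distinct let-7 3p arm that passed the filter, in log2 CPM (vertical axis, own scale in each panel), by region and group. Points are rats, and bars give the mean ± SD (n = 4). let-7d-3p and let-7b-3p lie lower in the NAc than in the IL and let-7f-1-3p higher, while the groups of rats overlap in nearly every panel.

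The 3 regions of each rat allow the question of where in the limbic forebrain each arm is high. The members called did not all go in the same direction: let-7d-3p, let-7b-3p and let-7e-3p were lower in the NAc than in either cortex, and let-7f-1-3p was higher. Regions were compared within rats with edgeR's quasi-likelihood test, with the rat as a block and a covariate for RNA quality (the RNA integrity number, RIN), and a call is a Benjamini-Hochberg adjusted p under 0.05 over all 457 miRNAs. In NAc minus PL, 1 of the 8 members was called higher and 3 lower, where 35.2% of all miRNAs were called higher and 31.9% lower. In NAc minus IL, 2 members were called higher and 3 lower, where 41.6% of all miRNAs were higher and 35% lower. In IL minus PL, 1 member was called higher and 1 lower, against a background of 17.1% and 18.2%. The median log2 difference of the members was -0.16, -0.22 and 0.11 in these 3 comparisons, and that of all miRNAs was 0.07, 0.10 and -0.02.

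let-7d-3p, the abundant arm, had levels of 3419, 4561 and 6705 CPM (lowest, median and highest of 12 rats) in the IL, 2268, 3332 and 5794 CPM in the PL and 1649, 2141 and 3154 CPM in the NAc. No NAc library reached the lowest IL library. Its log2 difference (log2FC) was -1.11 ± 0.12 (SE) in NAc minus IL (edgeR adjusted p = 3.29e-08) and -0.71 ± 0.13 in NAc minus PL (edgeR adjusted p = 3.31e-05), lower in 12 of 12 rats each time. It was also higher in the IL than in the PL (log2FC = 0.40 ± 0.12, edgeR adjusted p = 0.0159), in 9 of 12 rats and with overlapping ranges. This last call was lost without withdrawal rat 2 (log2FC = 0.33). Within groups the IL minus PL value was 0.13 in naive, 0.81 in withdrawal and 0.25 in abstinence rats (edgeR adjusted p = 0.997, 0.0120 and 0.429). Only the withdrawal value was called, and its difference from the naive value was not (0.68, edgeR adjusted p = 0.298).

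let-7b-3p, from the let-7c-2/let-7b pair of genes, had levels of 167, 235 and 293 CPM in the IL, 117, 193 and 312 CPM in the PL and 86.4, 120 and 152 CPM in the NAc. Here too the NAc and IL ranges did not overlap. Its log2FC was -0.97 ± 0.11 in NAc minus IL (edgeR adjusted p = 3.01e-08) and -0.79 ± 0.11 in NAc minus PL (edgeR adjusted p = 1.63e-06), lower in 12 of 12 rats in both. In IL minus PL its log2FC was 0.18 ± 0.11 (edgeR adjusted p = 0.200).

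let-7e-3p, from the miR-99b/let-7e/miR-125a cluster, differed less. Its levels were 63.0, 78.7 and 85.7 CPM in the IL, 53.6, 65.2 and 80.4 CPM in the PL and 41.8, 55.7 and 63.5 CPM in the NAc, with NAc and IL ranges that just touch. The log2FC was -0.46 ± 0.09 in NAc minus IL (edgeR adjusted p = 7.22e-05, lower in 12 of 12 rats) and -0.26 ± 0.09 in NAc minus PL (edgeR adjusted p = 0.0139, lower in 10 of 12 rats). In IL minus PL it was 0.20 ± 0.09 (edgeR adjusted p = 0.0875).

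let-7f-1-3p went the other way, although its gene lies beside let-7d. Its levels were 0.492, 1.10 and 2.45 CPM in the IL, 0.998, 2.04 and 2.89 CPM in the PL and 2.31, 3.51 and 5.70 CPM in the NAc, that is 34 to 79 reads per NAc library against 4 to 27 per IL library. The log2FC was 1.502 ± 0.24 in NAc minus IL (edgeR adjusted p = 4.33e-06, higher in 12 of 12 rats) and 0.84 ± 0.23 in NAc minus PL (edgeR adjusted p = 0.00227, 11 of 12 rats). In IL minus PL it was -0.66 ± 0.25 (edgeR adjusted p = 0.0414, lower in 8 of 12 rats). Within groups that value was -0.10 in naive, -1.13 in withdrawal and -0.75 in abstinence rats (edgeR adjusted p = 0.997, 0.0472 and 0.241). The IL minus PL call was lost with any 1 of 10 rats left out (all but abstinence rat 2 and naive rat 2, log2FC from -0.71 to -0.40) and without the 3 withdrawal libraries named above (-0.46) or all 6 libraries (-0.50).

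let-7c-1-3p had 0.439, 0.777 and 1.16 CPM in the IL, 0.249, 0.901 and 3.95 CPM in the PL and 0.235, 1.76 and 3.43 CPM in the NAc. It was called higher in NAc minus IL (log2FC = 0.92 ± 0.33, edgeR adjusted p = 0.0157, 10 of 12 rats), and its log2FC was 0.44 ± 0.32 in NAc minus PL (edgeR adjusted p = 0.230). The call was lost when abstinence rat 3 or 4, withdrawal rat 1 or 3, or naive rat 2 or 4 was left out, with a lowest log2FC of 0.51, and without the 3 withdrawal libraries (log2FC = 0.70) or all 6 libraries (0.57). let-7i-3p, let-7a-2-3p and let-7a-1-3p/let-7c-2-3p were not called between any regions. let-7i-3p had medians of 7.45, 6.82 and 7.94 CPM in the IL, PL and NAc. The edgeR log2FC of these 3 members ranged from -0.38 ± 0.30 to 0.21 ± 0.16, with adjusted p from 0.281 to 0.930.

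Within libraries, the log2 CPM of let-7f-1-3p relative to that of let-7d-3p, its genomic neighbour, was higher in the NAc than in the IL by 2.66 ± 0.84 (SD, n = 12 rats) and than in the PL by 1.52 ± 0.90. This pair was chosen after its values were seen, so no test is given.

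**Figure D2:**
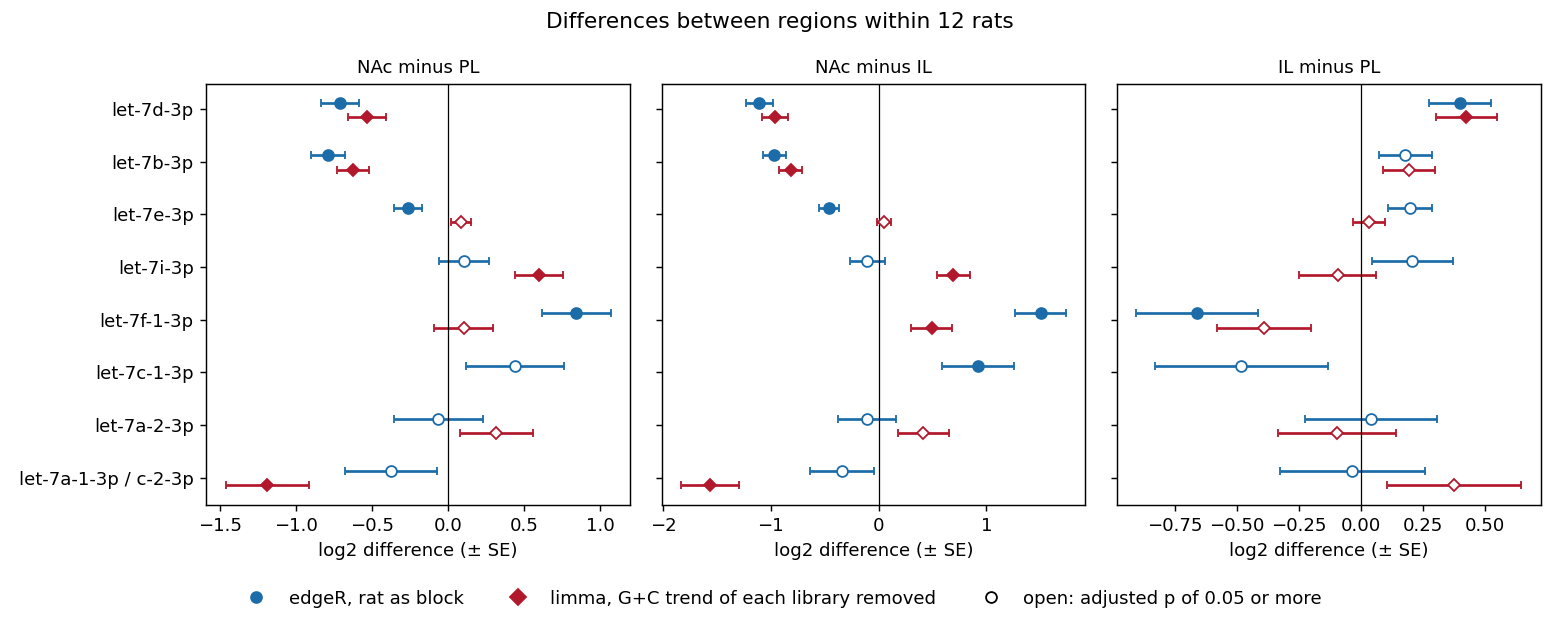
Log2 difference between 2 regions (horizontal axis, ± SE) for each member, from edgeR with the rat as a block (circles) and from limma after each library's trend with G+C content was removed (diamonds); filled symbols have an adjusted p under 0.05. let-7d-3p and let-7b-3p stay below 0 in both NAc comparisons, whereas let-7e-3p comes to lie near 0 and let-7f-1-3p in NAc minus PL falls to 0.10 once the trend is removed.

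Base composition moved with these differences. Over the 411 tested miRNAs with a sequence (89.9%), the log2FC correlated with G+C content with a Pearson r of -0.43 in NAc minus PL, -0.58 in NAc minus IL and 0.57 in IL minus PL (across miRNAs, which are not independent replicates). An alternative chosen after seeing the data therefore removed each library's trend of log2 CPM with G+C content and refitted with limma and the same rat block. let-7d-3p (log2FC = -0.96 in NAc minus IL, -0.53 in NAc minus PL and 0.42 in IL minus PL) and let-7b-3p (-0.82 and -0.62 in the NAc comparisons) kept their calls. let-7e-3p lost both and came out at 0.05 and 0.08. let-7f-1-3p kept its call in NAc minus IL (0.49, limma adjusted p = 0.0251) and lost those in NAc minus PL (0.10, limma adjusted p = 0.678) and IL minus PL (-0.39, limma adjusted p = 0.151).

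Other members gained a call in that fit. let-7a-1-3p/let-7c-2-3p, the members poorest in G and C, were then called lower in the NAc (log2FC = -1.56 against the IL and -1.19 against the PL, limma adjusted p = 3.70e-05 and 0.000841), and let-7i-3p, the richest, was called higher (0.69 and 0.60, limma adjusted p = 0.000509 and 0.00254). Of 7 members with a sequence, 4 were called in NAc minus PL in each fit and 2 in both, and in NAc minus IL 4 were called by edgeR, 5 after removal of the trend and 3 in both. Calls were as common outside the family. After removal of the trend, 146 of all 411 miRNAs were called higher and 97 lower in NAc minus PL. In NAc minus IL 189 were higher and 107 lower. The cause of the trend was not tested. Summed marker levels also differed by region, with medians for IL, PL and NAc of 2347, 2734 and 4318 CPM for 4 oligodendrocyte miRNAs, 2904, 5483 and 7452 CPM for 4 vessel miRNAs, 1411, 1452 and 2143 CPM for choroid plexus and ependyma, 905, 1010 and 686 CPM for 5 detected immune cell miRNAs, 292256, 374026 and 269865 CPM for the neuronal miRNAs and 39.8, 32.8 and 37.5 CPM for the epithelial miRNAs. The miRNAs of a list did not all follow its sum. In NAc minus IL, 2 tested immune cell miRNAs were called higher and 1 lower, and 3 vessel miRNAs higher and 1 lower. Among the neuronal miRNAs 1 was higher and 1 lower, and among 6 tested epithelial miRNAs 3 were higher and 1 lower. Of 7 choroid plexus and ependyma miRNAs 1 was called, higher, and all 3 tested oligodendrocyte miRNAs were higher. The part of these lists in the result was not tested.

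The guide arms of the same hairpins showed regional differences of their own. Of 8 guide arms, 2 were called higher and 5 lower in NAc minus PL (median log2FC = -0.68), 3 higher and 5 lower in NAc minus IL (-0.87), and 3 higher and 2 lower in IL minus PL (0.18). In NAc minus IL the guides let-7b-5p (-1.70) and let-7c-5p (-1.91) fell by more than let-7d-5p (-0.73), and let-7f-5p was higher by 1.64, near the 1.502 of its passenger. These values also moved with base composition. With the G+C trend removed (limma), 0 guides were called higher in either NAc comparison, 8 were lower in NAc minus PL and 6 in NAc minus IL, and 5 were higher and 0 lower in IL minus PL. Of all 411 miRNAs in that fit, 97 were lower in NAc minus PL, 107 were lower in NAc minus IL and 26 were higher in IL minus PL. let-7f-5p was then at 0.01 in NAc minus IL (limma adjusted p = 0.966) and at -0.36 in NAc minus PL (limma adjusted p = 0.0395), where its passenger was at 0.49 and 0.10. Of the 11 arms of miR-99, miR-100 and miR-125 genes, which neighbour let-7 genes, 1 was called higher and 7 lower in both NAc comparisons. let-7 guides differ from each other by as little as 1 base, so reads may be split between them uncertainly.

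Setting each passenger against its guide shows whether both arms of a hairpin moved alike, where no other gene copy shares the guide. The ratio was taken in each library as log2 of 3p counts over 5p counts, with 0.5 added to each, for 163 pairs of arms, of which 22 share a 5p entry with another gene copy (as do the let-7a, let-7c and let-7f copies). Over all pairs the median log2 ratio was -0.48, and 87 pairs had more 5p than 3p. let-7d had the most passenger reads for its guide reads, with 2.72, 5.23 and 7.61 reads of let-7d-5p per read of let-7d-3p (lowest, median and highest of 36 libraries), which ranked 98th of the 163 pairs. let-7b had a median of 55.7 guide reads per passenger read and let-7e of 118. The others were far lower in passenger, with medians of 4832 for let-7i, 5416 for let-7f-1, 30616 for let-7a-2, 31718 for let-7a-1, 41850 for let-7c-1 and 40648 for let-7c-2, the last of which had the lowest mean ratio of all 163 pairs.

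**Figure D3:**
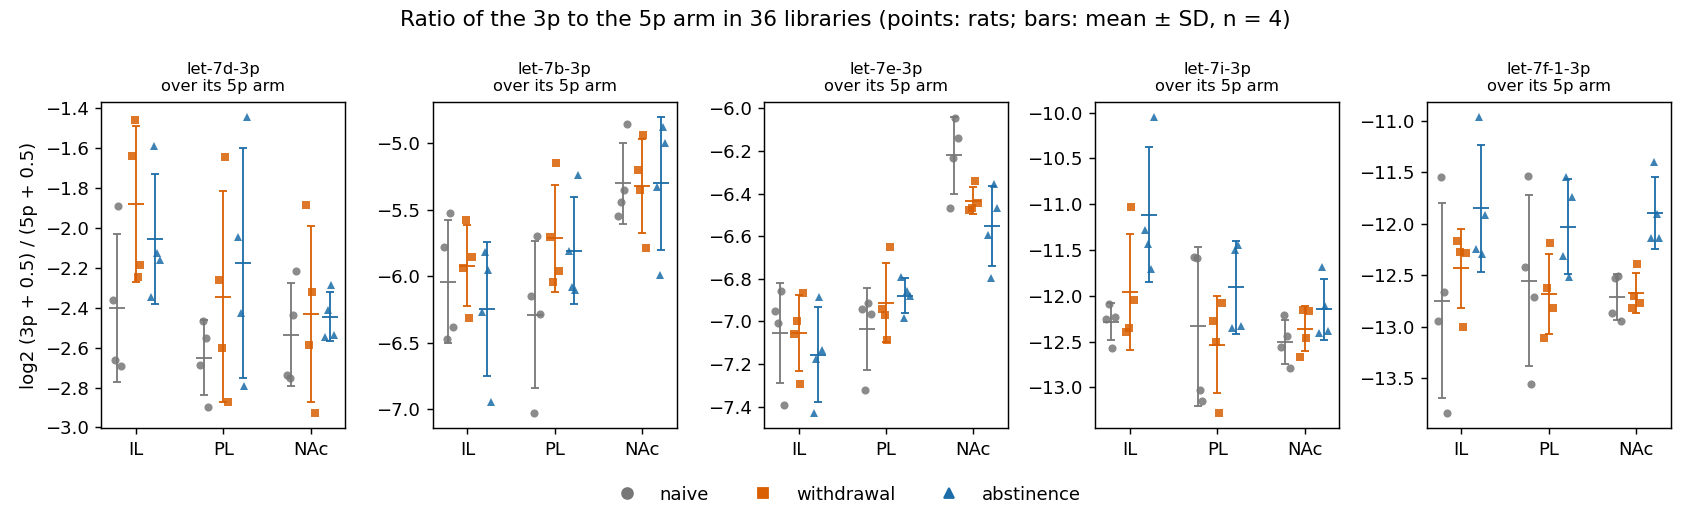
Log2 ratio of 3p to 5p counts (vertical axis, own scale in each panel) for the 5 most abundant members by region and group. Points are rats, and bars give the mean ± SD (n = 4). All NAc points of let-7e lie above all its IL points, the NAc points of let-7b lie high but overlap those of the cortex, and those of let-7d and let-7i overlap throughout.

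Ratios of several members were called between the NAc and the cortex, as were those of many pairs outside the family. Ratios were compared within rats with limma, the rat as a block, RIN as a covariate and adjustment over all 163 pairs. In NAc minus PL, 4 of the 8 members were called higher and 0 lower, where 31.9% of all pairs were higher and 26.4% lower. In NAc minus IL, 4 were called higher and 2 lower, against 36.2% and 38.7% of all pairs. In IL minus PL, 0 members were called with limma, and 1 had an unadjusted p under 0.05, where 17.2% of all pairs were called higher and 6.75% lower. let-7c-2-3p was not counted again here. Against let-7c-5p its ratio was higher in the NAc by 1.24 ± 0.27 (PL) and 1.51 ± 0.27 (IL), whereas the same reads set against let-7a-5p, as let-7a-1-3p, gave 0.46 ± 0.29 and 0.62 ± 0.28, neither of which was called.

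let-7e had 116, 131 and 172.5 guide reads per passenger read in the IL (lowest, median and highest of 12 rats), 100.4, 123 and 160 in the PL and 66.0, 87.7 and 111 in the NAc. The NAc and IL ranges did not overlap. Its log2 ratio was higher in the NAc by 0.69 ± 0.09 against the IL (limma adjusted p = 2.56e-06) and by 0.54 ± 0.10 against the PL (limma adjusted p = 0.000101), in 12 of 12 rats each. For let-7b the medians were 61.7, 64.1 and 40.6 in the IL, PL and NAc, and the log2 ratio was higher in the NAc by 0.74 ± 0.18 (limma adjusted p = 0.00109, 11 of 12 rats) and 0.59 ± 0.18 (limma adjusted p = 0.00981, 12 of 12 rats). For both genes the level of each arm was lower in the NAc, the guide by more than the passenger.

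let-7c-1, whose medians were 63916, 44282 and 8003 guide reads per passenger read in the IL, PL and NAc, had the largest differences of the 8 members, 2.72 ± 0.40 in NAc minus IL and 2.06 ± 0.40 in NAc minus PL (limma adjusted p = 5.29e-06 and 0.000274, 11 of 12 rats each), on 2 to 39 passenger reads per library. Its guide entry is shared with let-7c-2, so the ratio is not that of 1 hairpin. Without a sequence for let-7c-1-3p, the ratio could not be refitted with the G+C trend removed. let-7a-2 was higher by 0.87 ± 0.23 and 0.76 ± 0.23 (limma adjusted p = 0.00225 and 0.00955, in 9 and 7 of 12 rats). Without the covariate for RIN, its mean difference within rats was 0.78 ± 1.01 (SD) in NAc minus IL (exact permutation test, sign flips, p = 0.0181) and 0.55 ± 1.67 in NAc minus PL (exact permutation p = 0.280). The NAc minus PL call was lost in limma without RIN (0.55), without abstinence rat 4 (0.56) and without all 6 libraries named above (0.62).

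let-7d and let-7i went the other way in NAc minus IL. The log2 ratio of let-7d differed by -0.38 ± 0.15 (limma adjusted p = 0.0310, 11 of 12 rats), from medians of 4.51 guide reads per passenger read in the IL and 5.61 in the NAc. That of let-7i differed by -0.53 ± 0.22 (limma adjusted p = 0.0355, 10 of 12 rats). The let-7d call was lost when abstinence rat 1 or 2, withdrawal rat 2 or 4, or naive rat 1 was left out (-0.30 at the smallest), and the let-7i call without abstinence rat 1 or 4, withdrawal rat 1 or 3, or naive rat 1, 3 or 4 (-0.34 at the smallest) and without the 3 withdrawal libraries (-0.39) or all 6 libraries (-0.38). The ratio of let-7f-1 was not called, with differences of -0.08 ± 0.18 in NAc minus IL and 0.01 ± 0.19 in NAc minus PL. Summed over the family, 3p over 5p was lower in the NAc than in the IL by 0.45 ± 0.22 in log2 (SD, 12 of 12 rats, exact permutation test, sign flips, p = 0.000488), a sum in which most 3p counts come from let-7d-3p. In NAc minus PL the summed ratio differed by -0.12 ± 0.48 (lower in 6 of 12 rats, exact permutation p = 0.395). In IL minus PL it differed by 0.32 ± 0.53 (higher in 8 of 12 rats, exact permutation p = 0.0596). These sums are given without removal of a trend with G+C content.

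G+C content bears on these ratios too, since passengers and guides of the family differ in it. With the trend of each library removed from both arms (139 pairs with both sequences, chosen after seeing the data), let-7e (2.03 and 1.42 in NAc minus IL and NAc minus PL), let-7a-2 (2.64 and 1.996) and let-7b (1.23 and 0.91) kept their direction and calls. let-7d and let-7i reversed in NAc minus IL, to 0.60 (limma adjusted p = 0.00455) and 1.09 (limma adjusted p = 5.62e-05). The direction of the let-7d and let-7i ratios in NAc minus IL therefore depends on that step. Calls were also gained, for let-7f-1 (0.48, limma adjusted p = 0.0301) and let-7a-1 (0.66, limma adjusted p = 0.0439) in NAc minus IL, for let-7d (0.57, limma adjusted p = 0.0101), let-7i (0.99, limma adjusted p = 0.000299) and let-7f-1 (0.47, limma adjusted p = 0.0462) in NAc minus PL, and for let-7e in IL minus PL (-0.60, limma adjusted p = 0.0292). Of the 7 members with a sequence, 7 were then called higher and 0 lower in NAc minus IL, and 6 higher and 0 lower in NAc minus PL. The share of all 139 pairs called in that fit is not given here. These counts therefore cannot be read as particular to the family. let-7c-1 was not included.

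Cocaine history was compared within each region, 4 rats against 4. The tests found little: of the 8 members, only let-7a-1-3p/let-7c-2-3p passed the thresholds of the study (1.5-fold or more, unadjusted p below 0.05), and it rested on few reads. Of 72 tests (8 members in 9 comparisons), 0 had an adjusted p under 0.05 with edgeR or with DESeq2, and 4 had an unadjusted p under 0.05 with edgeR. In the IL, 0 members passed in withdrawal minus naive, 1 in abstinence minus naive and 1 in abstinence minus withdrawal, where 6.35%, 8.32% and 6.35% of all miRNAs passed. In the PL and the NAc 0 members passed in any comparison, where 4.81%, 2.41% and 3.5% of all miRNAs passed in the PL and 2.84%, 1.09% and 0.875% in the NAc, in the same order. Comparisons within a region share libraries, so their values are not independent. Group differences also moved with base composition. Over 411 miRNAs, the Pearson r of log2FC with G+C content ranged from -0.37 (withdrawal minus naive, PL) to 0.54 (abstinence minus naive, NAc). In the IL it was 0.29, 0.14 and -0.14, in the order above. The group values here are given without removal of that trend.

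let-7a-1-3p/let-7c-2-3p had 4, 8, 7 and 14 counts in the IL of naive rats 1 to 4, 5, 6, 14 and 2 counts in withdrawal rats and 11, 14, 13 and 25 counts in abstinence rats. The abstinence values were high, but the ranges overlapped those of both other groups. The log2FC was 1.30 ± 0.64 (SE) in abstinence minus naive (edgeR unadjusted p = 0.0497, adjusted p = 0.426, exact permutation p = 0.114) and 1.42 ± 0.62 in abstinence minus withdrawal (edgeR unadjusted p = 0.0294, adjusted p = 0.529, exact permutation p = 0.0571). The first call was lost when any 1 of 10 rats was left out, all but abstinence rat 3 and naive rat 4, and the second with each of 6 rats left out (abstinence rats 1, 2 and 4 and withdrawal rats 1, 2 and 4). Both were lost without the 3 withdrawal libraries named above (log2FC of 1.31 and 1.22) and without all 6 libraries (1.27 and 1.30). Of 7 choroid plexus and ependyma miRNAs, 1 was called lower in the first comparison and 2 in the second, with summed levels of 1306 to 1844 CPM in naive, 1143 to 2490 CPM in withdrawal and 1027 to 1539 CPM in abstinence rats, and 1 of 6 tested epithelial miRNAs was called lower in the second. Their part in the result was not tested. In the PL and NAc the same entry had log2FC of 0.18 ± 0.62 and -0.60 ± 0.60 in abstinence minus naive.

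**Figure D4:**
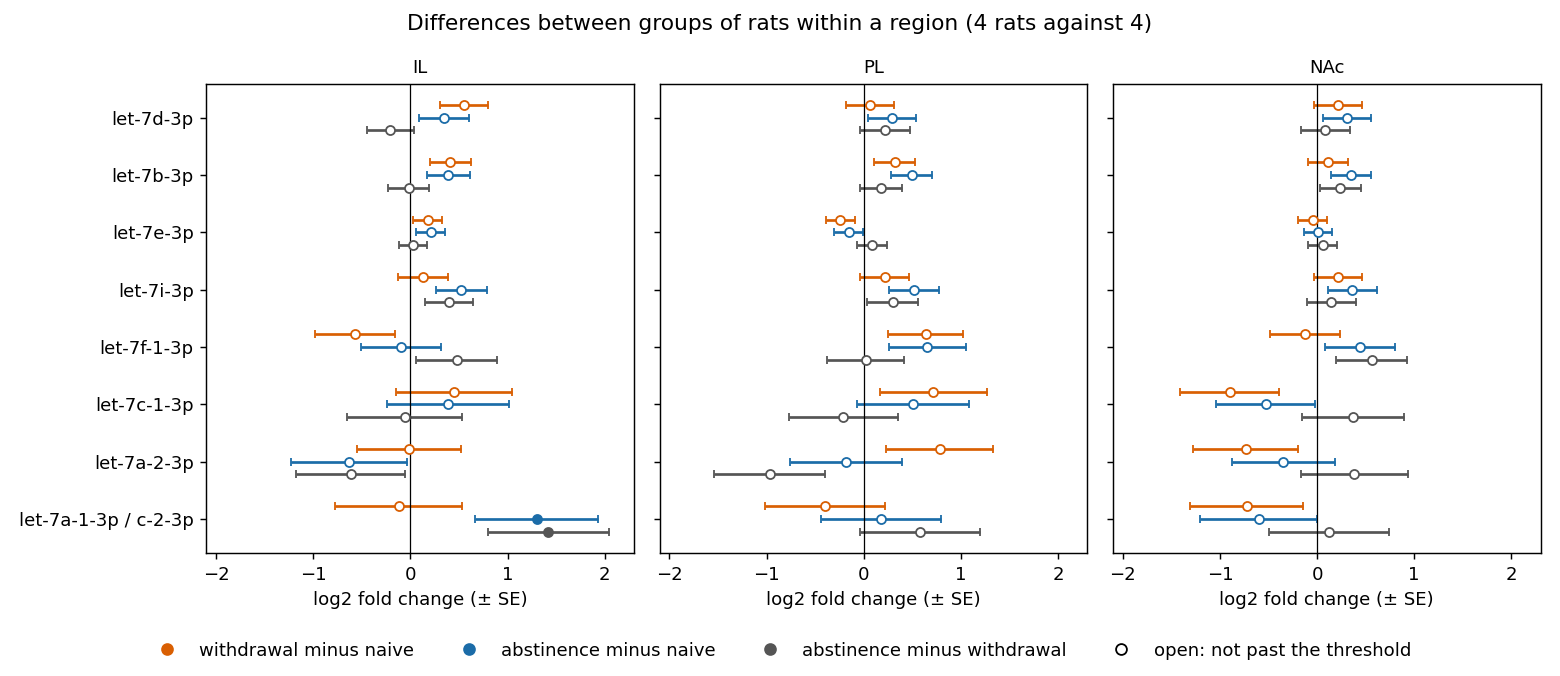
Log2 fold change (horizontal axis, ± SE) of each member for the 3 comparisons of groups within IL, PL and NAc, 4 rats against 4; filled circles passed both thresholds. Only let-7a-1-3p/let-7c-2-3p in the IL is filled, at 1.30 and 1.42, and the error bars widen from let-7d-3p to the rare members.

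let-7d-3p in the IL was at 4015, 3419, 4811 and 3505 CPM in naive rats and at 6705, 6216, 4779 and 4245 CPM in withdrawal rats, with overlapping ranges. Its log2FC in withdrawal minus naive was 0.55 ± 0.25 (edgeR unadjusted p = 0.0354, adjusted p = 0.489, exact permutation p = 0.0857), under the fold threshold. In abstinence minus naive its log2FC was 0.35 ± 0.26 in the IL, 0.29 ± 0.25 in the PL and 0.30 ± 0.25 in the NAc, with adjusted p of 0.569 or above. let-7b-3p had its lowest p in the PL, where naive rats had 117 to 194 CPM and abstinence rats 168 to 312 CPM (log2FC = 0.49 ± 0.21, edgeR unadjusted p = 0.0255, adjusted p = 0.768, exact permutation p = 0.200). Without the 6 libraries named above, let-7b-3p (log2FC = 0.64, edgeR adjusted p = 0.751) and let-7i-3p (0.79, edgeR adjusted p = 0.661) passed the thresholds of the study in that comparison.

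let-7i-3p in the IL was at 7.26, 5.99, 7.04 and 6.90 CPM in naive rats and at 9.89, 10.2, 7.64 and 13.7 CPM in abstinence rats. These ranges did not overlap, and the exact permutation p of 0.0286 is the smallest that 4 against 4 can give, but the log2FC of 0.53 ± 0.26 had an edgeR unadjusted p of 0.0520 and an adjusted p of 0.426. Its abstinence minus naive log2FC was 0.51 ± 0.26 in the PL and 0.36 ± 0.25 in the NAc, with overlapping ranges. let-7e-3p stayed between -0.24 ± 0.15 and 0.21 ± 0.15 in all 9 comparisons. The log2FC of let-7f-1-3p ranged from -0.57 ± 0.41 to 0.66 ± 0.40, of let-7c-1-3p from -0.90 ± 0.51 to 0.71 ± 0.55 and of let-7a-2-3p from -0.97 ± 0.57 to 0.78 ± 0.55, none with an unadjusted p under 0.05. At an SE of 0.51 to 0.65 for the 3 rarest members, differences of less than 1 in log2 could not be detected.

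The ratio of the arms showed no difference between groups either that passed adjustment. With limma, 0 member tests and 0 of 1467 tests over all pairs in the 9 comparisons were called (0% of all), while 5 member tests and 87 of all had an unadjusted p under 0.05. The let-7i ratio in the IL was higher in abstinence than in naive rats by 1.04 ± 0.38 (limma unadjusted p = 0.0111, adjusted p = 0.200, exact permutation p = 0.0286), the lowest p among the members in that comparison. Whether a difference between groups itself differed between regions was tested in the edgeR fit with the rat as a block. There 0 of 4113 tests were called (0%), 0 of them members, and 5 member tests and 224 of all had an unadjusted p under 0.05.

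Across the 36 libraries, let-7d-3p and let-7b-3p varied together although their genes are not neighbours. Their Pearson r over the libraries was 0.935. Within groups and regions (deviations of log2 CPM from each mean) it was 0.88, and 0.86 after removal of the G+C trend. The libraries share rats and depth, so these are descriptions. Among tested miRNAs outside the let-7 3p arms, the patterns most like that of let-7d-3p over the 36 libraries were those of miR-423-5p (r = 0.931), miR-342-5p (0.929) and miR-485-5p (0.928), and for let-7b-3p those of miR-122-5p (0.898), miR-3473 (0.893) and miR-125b-1-3p (0.887). let-7e-3p was most like its own guide let-7e-5p (0.884), and let-7f-1-3p was most like miR-16-5p (0.824). For let-7c-1-3p the closest was miR-1-3p (0.751). The closest patterns of let-7a-1-3p/let-7c-2-3p (miR-384-3p, 0.574), let-7i-3p (miR-760-5p, 0.471) and let-7a-2-3p (miR-34b-5p, 0.459) were weak.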

How the data were processed

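The authors ran CAP-miRseq on their reads and deposited the resulting counts, 1 whole number for each mature miRNA and library, without normalization. The paper and the submitters' processing notes name different rat genome builds (the notes give mRatBN 7.2, rn 7), and no coordinates were used. Libraries were grouped by the sample labels and tied to rats by the study's list of RNA samples, except 1 naive NAc library, tied to the only rat without one. RIN was 7.4 to 9.3, with 2 libraries under 8, and sequencing pools could not be matched to libraries. No 2 libraries of a group held identical values. In group comparisons, p-values measure the spread between rats, which edgeR and limma estimate over all 36 libraries. In tests with the rat as a block, and with sign flips, they measure how differences within a rat vary between rats.

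The edgeR filter filterByExpr (at least 10 counts, at least 15 in total) kept 457 miRNAs, and totals were scaled by TMM. Log2 CPM used a prior count of 0.5. Tests used R 4.3.3, edgeR 4.0.16 (quasi-likelihood), limma 3.58.1 for ratios and DESeq2 1.42.0 as an alternative. Scripts were tested on simulated data. Groups were compared with 1 mean for each of 9 combinations of group and region and RIN as covariate, and regions with the rat as a fixed block. Libraries of 1 rat are paired by design: deviations from group means correlated between its regions with a median r of 0.27 (NAc and PL), 0.15 (NAc and IL) and 0.27 (IL and PL).

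The members and lists were chosen with earlier results of these data known. Named are all members, guide arms, cluster partners, marker lists and the 3 closest patterns or the first of them. The oligodendrocyte list used miR-219-2-3p and miR-219-5p, the names in the table, and miR-155-5p and miR-486 had no entry. Alternatives changed the tool, scaling, filter, covariate, samples, pseudocount and block, and left out each rat in turn.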

Additional observations from a re-analysis of the deposited data

Results flagged for a closer look

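Among the sets of 4 rats (1 member, group and region, as log2 CPM or as log2 ratio of the arms), 7 held 1 library whose gap to the nearest of the other 3 was large beside the range of the set (Dixon's criterion). They are 4.58% of the sets tested, and chance alone marks about 1 in 20. In the NAc of withdrawal rats, rat 4 was low for let-7a-2-3p (log2 CPM -2.388, others -0.50 to -0.13, 2 reads), for its ratio to let-7a-5p (-16.68, others -14.84 to -14.51) and for let-7b-3p (6.434, others 6.998 to 7.106). In the NAc of abstinence rats, rat 2 was low for let-7c-1-3p (-1.834, others 0.86 to 1.10, 3 reads) and for its ratio to let-7c-5p (-16.39, others -13.11 to -12.63). The let-7e ratio was low in the PL of naive rat 2 (-7.32, others -6.97 to -6.91), and the let-7f-1 ratio in the IL of withdrawal rat 3 (-13.01, others -12.29 to -12.17).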

How the results depend on the processing

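The log2 values of called members were recomputed under each alternative. Under settings other than leaving out a rat, 163 of 192 values kept direction and call, 25 lost the call and 4 reversed, all 4 with the G+C trend removed: let-7e-3p in NAc minus PL (0.082) and NAc minus IL (0.051), and the ratios of let-7d (0.60) and let-7i (1.09) in NAc minus IL. With 1 rat left out, 230 of 276 kept the call, 46 lost it and 0 reversed. The calls of let-7b-3p, let-7d-3p, let-7e-3p and let-7f-1-3p between the NAc and either cortex, and of the let-7b, let-7c-1 and let-7e ratios, held with each rat left out. In naive rats alone let-7e-3p was at -0.32 (NAc minus PL) and -0.36 (NAc minus IL) without a call. The main fit with all rats put naive rats at -0.38 in NAc minus PL, which was called (edgeR adjusted p = 0.0398). In NAc minus IL it put them at -0.32 without a call (edgeR adjusted p = 0.0897).

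The number of members called in abstinence minus naive in the PL was 1 in place of 0 with DESeq2, with DESeq2 size factors, without RIN, with the libraries of the region alone and without the 3 withdrawal libraries high in choroid plexus or epithelial miRNAs. It was 2 without the 6 libraries named above for markers of other cell types (both sets of libraries chosen after seeing the data). In the IL it was 0 in place of 1 without a filter, with the region alone and without those 3 or 6 libraries, and abstinence minus withdrawal in the IL was 0 in place of 1 without those 3 or 6. In the NAc, abstinence minus withdrawal was 1 in place of 0 with the region alone. In IL minus PL, 1 member was called in place of 2 without a filter, without RIN, with the G+C trend removed and without the 6 libraries, and 0 in naive rats alone. Among arm ratios, 2 in place of 4 (NAc minus PL) and 3 in place of 6 (NAc minus IL) were called where both arms had a mean of 100 counts, which leaves 3 members, and 1 in place of 0 in IL minus PL with the G+C trend removed. The cause was not tested.

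With 1 rat left out, members called ranged from 0 to 2 (withdrawal minus naive), 0 to 2 (abstinence minus naive) and 0 to 1 (abstinence minus withdrawal) in the IL, 0 to 1, 0 to 2 and 0 to 1 in the PL and 0 to 1, 0 and 0 in the NAc. Between regions they were 4 to 5 (NAc minus PL), 4 to 5 (NAc minus IL) and 0 to 3 (IL minus PL), and for ratios 3 to 4, 4 to 7 and 0. Group by region differences and group differences in ratio stayed at 0.

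Without the rat as a block, 4, 5 and 2 members were called between regions and 3, 6 and 0 ratios, the let-7a-2 ratio in NAc minus PL (0.68) being the call lost. With the rat as a random block, let-7a-1-3p/let-7c-2-3p in the IL was at 1.32 and 1.48 and still passed, and the block changed no other call. Depth limits the 4 rarest members, whose counts reach single digits.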
